A study of Mus musculus with 64 samples.

Results

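RNA of the hippocampus was measured by bulk RNA sequencing in 8 inbred mouse strains, and the results below set CAST/EiJ and PWK/PhJ against the other 6. These 2 strains gave 16 of the 64 libraries, 4 from females and 4 from males each. The other 48 libraries came, in the same numbers per sex, from C57BL/6J, 129S1/SvImJ, NOD/ShiLtJ, A/J, NZO/HlLtJ and WSB/EiJ. The labels give strain, sex and tissue, and they name no age, treatment or engineered allele. Each strain counted equally, whatever its relation to the others. A gene was described where edgeR called it between the 2 sets of strains, at an adjusted p under 0.05 and a log2 fold change of at least 1 in size, and where the means of both CAST/EiJ and PWK/PhJ lay on 1 side of all 6 other strain means. This order was taken on the means that edgeR fitted on a log scale, with the sexes weighted equally. Both conditions held for 809 of 17382 genes tested (4.65%). Levels are given as CPM, counts scaled to a common library total after TMM normalisation, so they compare libraries for 1 gene and not genes with each other.

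The house mouse comprises several subspecies. CAST/EiJ was derived from wild mice of Mus musculus castaneus and PWK/PhJ from wild mice of Mus musculus musculus. The other 6 strains carry mostly Mus musculus domesticus genomes, and WSB/EiJ among them is also a recent derivative of wild mice. Crosses that start from all 8 strains, such as the Collaborative Cross, are used to map how differences between these genomes act on expression. All libraries of 1 inbred strain share its genome, so the tests compare these strains and not the subspecies. Nothing in the labels says which samples came from separate animals, and p-values measure only the spread between the samples given.

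The 16 libraries held 16607602 to 25930306 counts (median 21630885) and the other 48 held 18981914 to 27759221 (median 22239987). A count was seen for 19596 to 20527 genes in a library of CAST/EiJ or PWK/PhJ and for 19986 to 20973 in the others. The tissue label was checked on marker genes from lists. Fibcd1, a marker of CA1 pyramidal neurons, stood at 189 ± 16.2 CPM in CAST/EiJ (SD, n = 8) and 171 ± 18.3 in PWK/PhJ (SD, n = 8), against a mean of 181 in the other 6 strains. Prox1, which marks dentate granule neurons, stood at 84.3 ± 10.1 (SD, n = 8), 90.5 ± 8.31 (SD, n = 8) and 102. Summed choroid plexus markers varied widely, from 22.04 to 4890 CPM over the 16 libraries and from 31.1 to 4949 over the 48. The CAST/EiJ females carry a block of sample title numbers apart from that of all other samples, so in that strain sex and block cannot be told apart. The title numbers of the other samples run strain by strain, so strain and number order cannot be told apart either. In males alone, which leaves the CAST/EiJ females out, 218 genes were higher and 492 lower on the same side.

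CAST/EiJ and PWK/PhJ stood apart from the other strains and about as far from each other. The first principal component of log2 CPM held 21.7% of the variance. Its mean score was 54.1 in CAST/EiJ and 52.9 in PWK/PhJ, -7.83 in WSB/EiJ and between -21.7 and -16.4 in the other 5 strains. The second component, with 13.3%, placed CAST/EiJ at -46.9 and PWK/PhJ at 48.6, with the other 6 strains between -8.92 and 3.53. The root mean square difference of log2 CPM between CAST/EiJ and PWK/PhJ was 0.733. CAST/EiJ differed by 0.720 to 0.743 from each of the 6 and PWK/PhJ by 0.707 to 0.741, while pairs among the 6 differed by 0.446 to 0.570. All 64 libraries, these 16 among them, correlated best with another library of their own strain.

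**Figure D1:**
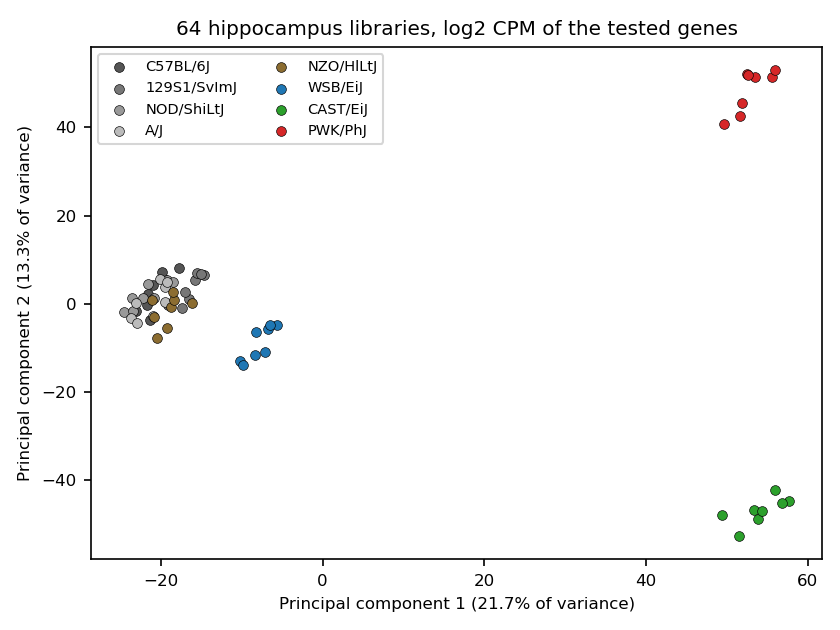
Scores of the 64 libraries on the first (horizontal) and second (vertical) principal component of log2 CPM, with the percent of variance on each axis. Each point is 1 library, coloured by strain. CAST/EiJ and PWK/PhJ lie together at the right, near 54.1 and 52.9 on the first component, and at opposite ends of the second.

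The same picture held for single genes. edgeR called 2000 genes (11.5% of those tested) between CAST/EiJ and PWK/PhJ. It called 1884 to 2021 between CAST/EiJ and each of the 6, and 1890 to 2025 between PWK/PhJ and each of the 6. Pairs among the 6 gave 661 to 1101 genes. These pairs share strains, so their counts are given side by side as a description.

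Between the mean of the 2 strains and the mean of the 6, edgeR called 1342 genes (7.72% of those tested), 476 of them higher (2.74%) and 866 lower (4.98%). Both strain means lay above all 6 others for 260 of the higher genes (1.5%) and below all 6 for 549 of the lower genes (3.16%). The order of 8 means is a description and adds no test. The remaining 216 higher and 317 lower calls came from genes where the 2 means did not both lie beyond all 6. Among genes on the same side, which the rule placed at 1 or more in size, the median log2 fold change was 1.72 for the higher and -1.75 for the lower. A log2 fold change of at least 4 in size was seen for 22 higher and 40 lower genes. Every one of the 16 libraries lay beyond all 48 for 46 of the 260 higher genes and for 122 of the 549 that were lower. Over all genes tested the same complete separation was seen for 0.673% upward and 1.02% downward. These shares are not comparable, since the rule itself selects genes with both means beyond all 6.

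The nearest of the 6 strains was most often a different one for the higher and lower genes. NZO/HlLtJ was nearest for 72 and WSB/EiJ for 59 of the 260 higher genes. WSB/EiJ was nearest for 145 of the 549 lower genes, ahead of C57BL/6J and A/J with 97 each. The gap between the nearer of the 2 strains and the nearest of the 6, in log2 CPM, had a median of 0.553 for the higher and 0.603 for the lower genes. It was at least 1 for 52 and 130 genes and under 0.1 for 17 and 49.

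The genes on the same side were mostly of low abundance. Of tested genes with a mean under 1 CPM over the 8 strains, 5.66% were higher and 10.7% lower in both. From 1 to 10 CPM these shares were 1.72% and 4.14%, and from 10 to 100 CPM 0.233% and 0.646%. Of 2276 genes at 100 CPM or more, 1 was higher and 4 were lower. Protein-coding genes made up 181 of those higher and 313 of those lower, which is 1.17% and 2.03% of those tested. Genes annotated as non-coding or unclassified gave 79 and 234, or 4.16% and 12.3%. Only 2 of the lower genes had no count in all 16 libraries and only 1 of the higher genes had none in all 48, and none of the 3 codes for protein.

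**Figure D2:**
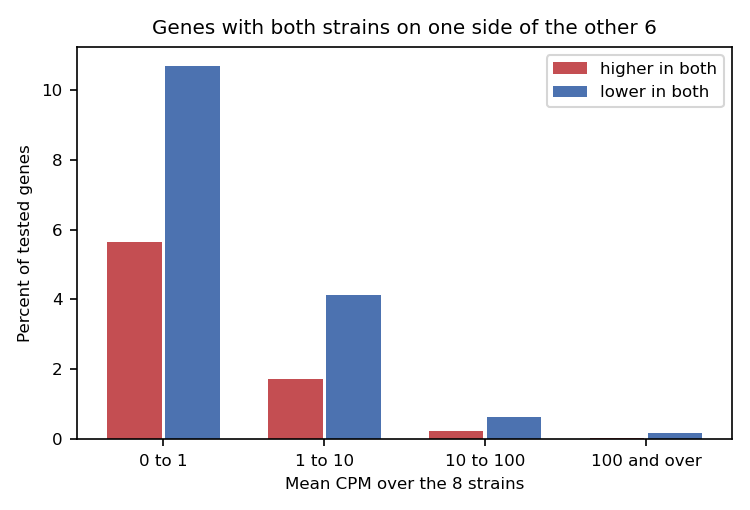
Percent of tested genes (vertical) on the same side in both strains, by mean CPM over the 8 strains (horizontal). Red bars are genes higher in CAST/EiJ and PWK/PhJ and blue bars genes lower. The shares are 5.66% and 10.7% under 1 CPM and below 1% from 10 CPM upward.

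Among the protein-coding genes that separated the strains, several enzymes and signalling molecules were higher in CAST/EiJ and PWK/PhJ. Nat8f2 ranged from 6.5 to 9.27 CPM in CAST/EiJ (median 8.69) and from 6.59 to 8.56 in PWK/PhJ (median 7.56), against 0 to 1.81 in the 48 other libraries (median 0.195). On the log2 scale this member of the N-acetyltransferase 8 family was higher by 5.03 ± 0.097 (SE; edgeR adjusted p = 3.24e-45), and WSB/EiJ, at a mean of 1.48 CPM, was the nearest of the 6. All 16 libraries lay above all 48. Nudt12 ranged from 16.4 to 20.8 CPM in CAST/EiJ (median 18.5) and from 17.3 to 19.7 in PWK/PhJ (median 17.7), against 5.11 to 8.28 in the 48 other libraries (median 6.84). Nudt12, a peroxisomal enzyme that cleaves NADH, was higher by 1.44 ± 0.0378 (SE; edgeR adjusted p = 2.22e-38) on the log2 scale, and the means of CAST/EiJ and PWK/PhJ differed by only 0.042 (edgeR adjusted p = 0.626). For this gene the 6 other strain means stood close together, between 6.38 and 7.21 CPM.

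Among 83 nuclear genes of oxidative phosphorylation, 1 was called higher and 1 lower, against 2.74% and 4.98% of all genes. The higher one was Cox5b, the nuclear gene of a subunit of cytochrome c oxidase. Cox5b ranged from 104 to 124 CPM in CAST/EiJ (median 108) and from 107 to 116 in PWK/PhJ (median 111), against 37.6 to 76.9 in the 48 other libraries (median 45.6). The log2 fold change was 1.25 ± 0.0456 (SE; edgeR adjusted p = 5.89e-31), with no overlap between the groups. Ube2s ranged from 52 to 71.3 CPM in CAST/EiJ (median 56.3) and from 43.6 to 47.9 in PWK/PhJ (median 45.4), against 11.2 to 24.1 in the 48 other libraries (median 16.4). Ube2s, which encodes a ubiquitin-conjugating enzyme of the anaphase-promoting complex, was higher by 1.66 ± 0.0479 (SE; edgeR adjusted p = 4.55e-36) in log2 terms, again without overlap. Sfi1, whose product binds centrin, gave 2.34 ± 0.0456 (SE; edgeR adjusted p = 2.33e-44) and Coq8b, an atypical kinase needed for coenzyme Q synthesis, gave 1.04 ± 0.0402 (SE; edgeR adjusted p = 2.44e-30). Plekhg3, a guanine nucleotide exchange factor for small GTPases, gave 1.11 ± 0.0452 (SE; edgeR adjusted p = 2.66e-29). Coq8b fell just short of the fold minimum without C57BL/6J (0.998), CAST/EiJ (0.999) or WSB/EiJ (0.992), and Plekhg3 without CAST/EiJ (0.89). In none of Sfi1, Coq8b and Plekhg3 did a library of the 2 strains reach down to the 48.

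Lct, the gene of lactase and a marker of dentate granule neurons in the lists used here, was also higher. Lct ranged from 113 to 192 CPM in CAST/EiJ (median 136) and from 82.8 to 109 in PWK/PhJ (median 95.7), against 13.9 to 58.4 in the 48 other libraries (median 34.3). The log2 difference was 1.72 ± 0.0711 (SE; edgeR adjusted p = 1.89e-27), and it was larger in CAST/EiJ than in PWK/PhJ by 0.53 (edgeR adjusted p = 0.00056). Dsp, the gene of desmoplakin and another member of the dentate list, went the other way. Dsp ranged from 0.342 to 5.07 CPM in CAST/EiJ (median 3.31) and from 8.7 to 14.5 in PWK/PhJ (median 11.5), against 34 to 87.9 in the 48 other libraries (median 54.5). At -3.27 ± 0.139 (SE; edgeR adjusted p = 1.15e-26) its groups did not overlap either, and the fold changes were -4.34 in CAST/EiJ and -2.21 in PWK/PhJ. The summed level of the 8 dentate markers ran from 358 to 543 CPM in the 16 libraries and from 304 to 519 in the 48, so it overlapped. In bulk tissue, fewer cells of a type and less RNA per cell cannot be told apart.

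**Figure D3:**
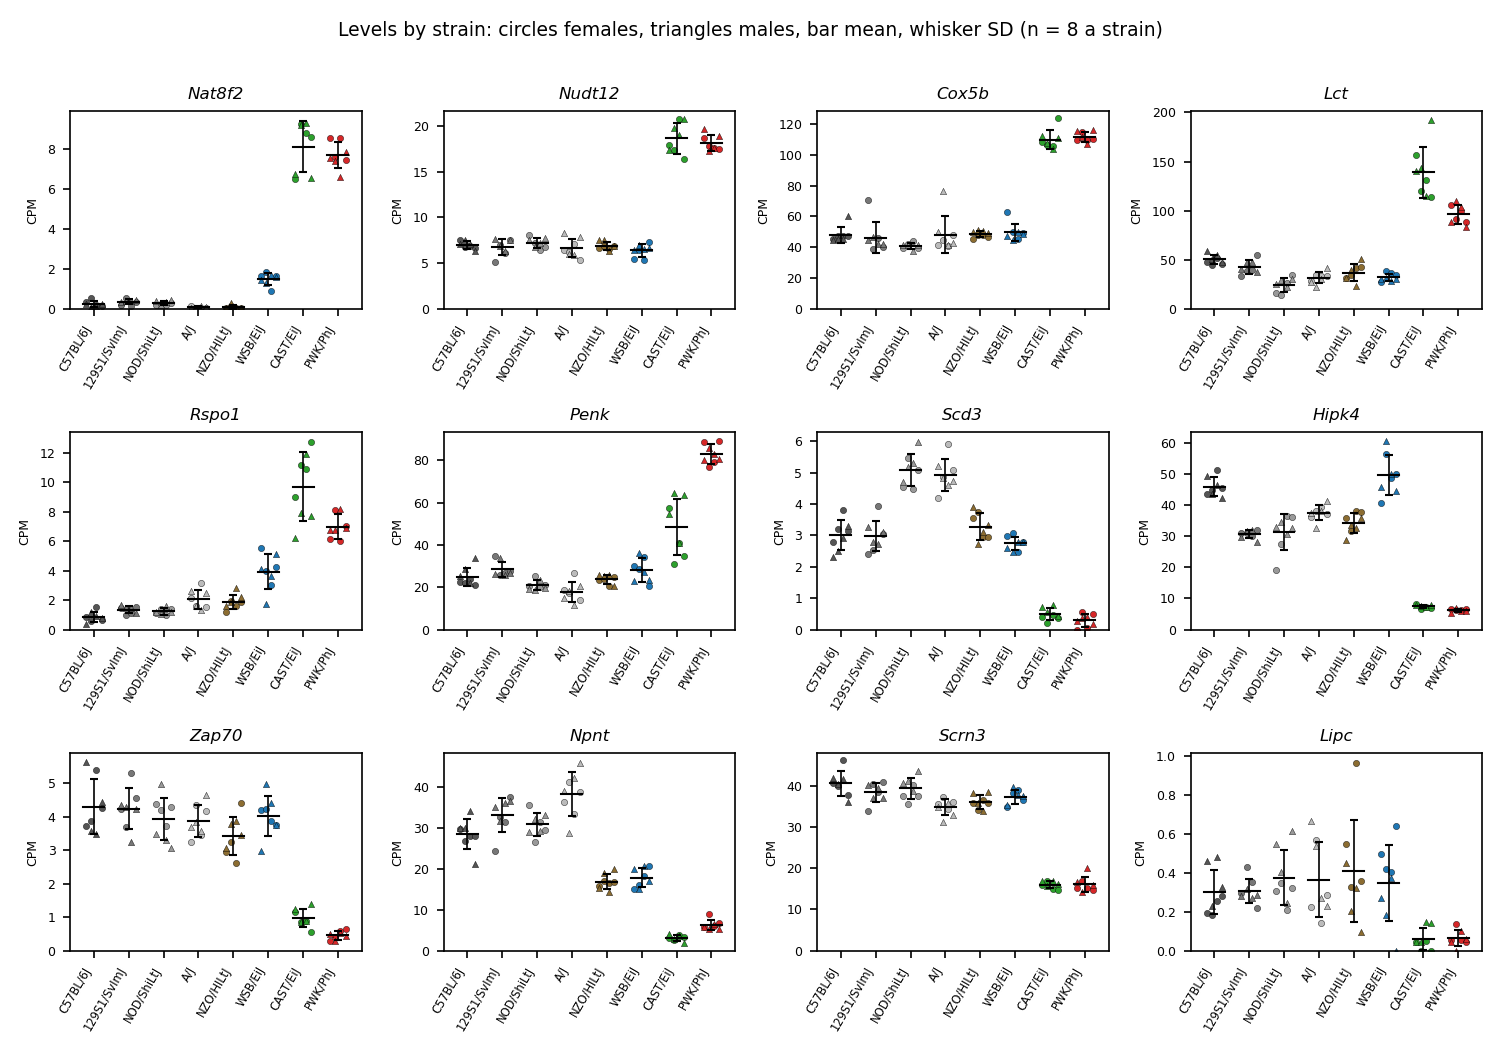
CPM (vertical, from 0) of 12 genes in each of the 8 strains (horizontal). Circles are female and triangles male libraries, the bar is the mean and the whisker the SD over 8 libraries. All 16 libraries of CAST/EiJ and PWK/PhJ lie beyond all 48 others in every panel except Penk and Lipc, where the groups overlap.

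Rspo1 ranged from 6.2 to 12.8 CPM in CAST/EiJ (median 9.97) and from 6.01 to 8.23 in PWK/PhJ (median 6.85), against 0.36 to 5.53 in the 48 other libraries (median 1.53). Rspo1, a secreted protein that strengthens Wnt signalling, had a log2 difference of 2.29 ± 0.0924 (SE; edgeR adjusted p = 2.68e-29), and WSB/EiJ was the nearest strain with a mean of 3.93 CPM. Of 25 neuropeptide genes tested, 2 were called, both higher, against 2.74% of all genes. At any fold 6 neuropeptide genes were higher and 10 lower, with a median of 0.0087. Penk ranged from 31 to 64.7 CPM in CAST/EiJ (median 47.8) and from 76.9 to 89.3 in PWK/PhJ (median 81.9), against 11.8 to 36.3 in the 48 other libraries (median 23.7). Penk, the precursor of the enkephalins, gave 1.41 ± 0.0629 (SE; edgeR adjusted p = 1.75e-26), with the values of CAST/EiJ reaching into the range of the 48 and those of PWK/PhJ all above it. PWK/PhJ exceeded CAST/EiJ, with a CAST/EiJ minus PWK/PhJ difference of -0.79 (edgeR adjusted p = 4.14e-08). Trh ranged from 2.14 to 12.8 CPM in CAST/EiJ (median 5.25) and from 0.766 to 2.41 in PWK/PhJ (median 1.58), against 0 to 6.46 in the 48 other libraries (median 0.236). Trh, the precursor of thyrotropin-releasing hormone, gave 3.01 ± 0.327 (SE; edgeR adjusted p = 2.18e-11) and its groups overlapped.

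Calls among receptor and synaptic genes are given by list, where over all genes tested 2.74% were called higher and 4.98% lower. Of 30 neuropeptide receptors tested, 1 was called higher and 2 lower, and Npy2r alone lay on the same side. Npy2r ranged from 17.6 to 27.6 CPM in CAST/EiJ (median 23.8) and from 22.8 to 29.6 in PWK/PhJ (median 27.4), against 39.9 to 67.5 in the 48 other libraries (median 54). This presynaptic receptor for neuropeptide Y and peptide YY had a log2 difference of -1.08 ± 0.0426 (SE; edgeR adjusted p = 6.77e-30), and no library of the 2 strains overlapped the 48. Without CAST/EiJ it was -0.98, short of the fold minimum. Drd5, a dopamine receptor that raises cyclic AMP, gave -1.05 ± 0.0399 (SE; edgeR adjusted p = 1.34e-30), with fold changes of -0.63 in CAST/EiJ and -1.47 in PWK/PhJ. Its mean in WSB/EiJ, 9.12 CPM, lay next to the median of CAST/EiJ at 8.67, so the order of these 2 strains does not exceed their spread. The Drd5 value was -0.62 without PWK/PhJ and -0.97 without C57BL/6J, 129S1/SvImJ or NOD/ShiLtJ, short of the fold minimum each time.

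No AMPA, kainate, NMDA or metabotropic glutamate receptor gene was called among 9, 6 and 7 tested, where 7.72% of all genes were called. At any fold, 4 AMPA or kainate and 4 NMDA receptor subunits passed the adjusted p, all higher, as did 30.7% of all genes tested. GABA-A receptor subunits gave 1 higher and 1 lower call among 16, against 2.74% and 4.98% of all genes. These were Gabrr1 at 1.6 ± 0.183 (SE; edgeR adjusted p = 4.11e-11) and Gabrr2 at -1.41 ± 0.212 (SE; edgeR adjusted p = 6.37e-08). Without CAST/EiJ the Gabrr2 value was -0.78, short of the fold minimum. Both genes were low: Gabrr1 had a median of 0.122 CPM and Gabrr2 of 0.668 CPM in the 48 libraries. Cplx3, a complexin that acts in vesicle release, was the only call among 30 vesicle release genes, against the same 7.72%. Cplx3 ranged from 0.329 to 1.84 CPM in CAST/EiJ (median 0.811) and from 1.1 to 2.77 in PWK/PhJ (median 1.65), against 1.76 to 10.1 in the 48 other libraries (median 4.18). The log2 difference was -1.85 ± 0.175 (SE; edgeR adjusted p = 1.74e-13) and the groups overlapped. Cacna2d4, an auxiliary calcium channel subunit, was the only call among 31 sodium and calcium channel genes, again against 7.72%. It gave -1.2 ± 0.113 (SE; edgeR adjusted p = 7.79e-14), and without PWK/PhJ it was -0.74, short of the fold minimum. Of 86 potassium channel genes, 4 were called higher and 1 lower, 3 of them on the same side, against 2.74% and 4.98% called over all genes.

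More genes were lower than higher, and several of the lower ones were nearly silent in both strains. Scd3 ranged from 0.214 to 0.772 CPM in CAST/EiJ (median 0.45) and from 0 to 0.55 in PWK/PhJ (median 0.311), against 2.32 to 5.98 in the 48 other libraries (median 3.24). Scd3, a stearoyl-CoA desaturase, had a log2 difference of -3.21 ± 0.117 (SE; edgeR adjusted p = 1.34e-31). Hipk4 ranged from 6.59 to 8.16 CPM in CAST/EiJ (median 7.51) and from 5.49 to 6.86 in PWK/PhJ (median 6.28), against 19.2 to 60.7 in the 48 other libraries (median 37). Hipk4, a homeodomain-interacting protein kinase, gave -2.46 ± 0.0537 (SE; edgeR adjusted p = 1.67e-42). Zap70 ranged from 0.553 to 1.39 CPM in CAST/EiJ (median 0.88) and from 0.274 to 0.636 in PWK/PhJ (median 0.458), against 2.62 to 5.61 in the 48 other libraries (median 3.87). Zap70, a tyrosine kinase of T cell receptor signalling, gave -2.57 ± 0.0968 (SE; edgeR adjusted p = 7.40e-31). In these 3 genes all 16 libraries lay below all 48.

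Rad9b ranged from 0.144 to 0.426 CPM in CAST/EiJ (median 0.203) and from 0.0392 to 0.225 in PWK/PhJ (median 0.113), against 1.71 to 4.82 in the 48 other libraries (median 2.93). Rad9b, a paralogue of the checkpoint protein Rad9a, had a log2 difference of -4.21 ± 0.151 (SE; edgeR adjusted p = 6.32e-32). Spink10 ranged from 0.0428 to 0.141 CPM in CAST/EiJ (median 0.0917) and from 0 to 0.235 in PWK/PhJ (median 0.124), against 0.92 to 13.4 in the 48 other libraries (median 4.75). Spink10, of a family of serine protease inhibitors, gave -5.51 ± 0.174 (SE; edgeR adjusted p = 2.07e-34) without overlap. A2ml1, of the alpha-2-macroglobulin family of protease inhibitors, gave -3.07 ± 0.0742 (SE; edgeR adjusted p = 3.47e-40). Capsl, a calcium-binding protein, gave -2.15 ± 0.103 (SE; edgeR adjusted p = 7.17e-26) and stood highest in WSB/EiJ, at a mean of 8.58 CPM.

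Npnt and Thsd4, genes of matrix proteins, were lower. Npnt ranged from 1.91 to 4.06 CPM in CAST/EiJ (median 3.11) and from 5.33 to 8.89 in PWK/PhJ (median 5.96), against 14.3 to 46 in the 48 other libraries (median 29.1). Npnt, the gene of the integrin ligand nephronectin, had a log2 difference of -2.57 ± 0.0709 (SE; edgeR adjusted p = 7.09e-37), with a CAST/EiJ minus PWK/PhJ value of -1.005 (edgeR adjusted p = 1.49e-09). Thsd4 ranged from 15.4 to 22.1 CPM in CAST/EiJ (median 18.7) and from 13.8 to 16.7 in PWK/PhJ (median 14.9), against 28.9 to 71.5 in the 48 other libraries (median 57.2). Thsd4, which encodes a microfibril protein of the ADAMTS-like family, gave -1.76 ± 0.0675 (SE; edgeR adjusted p = 1.52e-29). Collagen genes as a group gave 1 call, lower, among 43, against 4.98% lower over all genes.

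Scrn3 ranged from 14.8 to 16.9 CPM in CAST/EiJ (median 16) and from 14.2 to 20.1 in PWK/PhJ (median 15.6), against 31.2 to 46.2 in the 48 other libraries (median 37.6). Scrn3, a member of the secernin family, gave -1.23 ± 0.0303 (SE; edgeR adjusted p = 7.39e-40). Its 6 other strain means lay between 34.8 and 40.6 CPM, and the means of CAST/EiJ and PWK/PhJ differed by -0.0058 on the log2 scale (edgeR adjusted p = 0.935). Stxbp4, a syntaxin-binding protein, gave -1.13 ± 0.0669 (SE; edgeR adjusted p = 1.41e-21), and -0.93 without PWK/PhJ, short of the fold minimum. Tmc3, of the transmembrane channel-like family, gave -3.46 ± 0.247 (SE; edgeR adjusted p = 6.12e-18), and 1 of its 48 libraries at 0.102 CPM fell within the range of the 16.

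Of 21 lipoprotein and lipid transport genes, 2 were called, both lower, against 4.98% lower over all genes. Mttp ranged from 3.25 to 5.5 CPM in CAST/EiJ (median 4.2) and from 0.613 to 1.02 in PWK/PhJ (median 0.89), against 10.8 to 19.6 in the 48 other libraries (median 16.5). Mttp, the microsomal protein that loads lipid onto apolipoprotein B, had a log2 difference of -3.03 ± 0.05 (SE; edgeR adjusted p = 1.91e-48), with -1.86 in CAST/EiJ and -4.2 in PWK/PhJ. Lipc ranged from 0 to 0.145 CPM in CAST/EiJ (median 0.0435) and from 0 to 0.138 in PWK/PhJ (median 0.0541), against 0 to 0.966 in the 48 other libraries (median 0.319). Lipc, the hepatic lipase gene, gave -2.56 ± 0.277 (SE; edgeR adjusted p = 7.14e-12), from 20 counts in the 16 libraries together, and the groups overlapped. Of 22 haem synthesis and iron genes, 1 was called lower and 1 higher, near the shares over all genes (4.98% and 2.74%), with a median of -0.033. The higher call, Tmprss6, a protease that acts on hepcidin control, was at 1.01 ± 0.136 (SE; edgeR adjusted p = 4.59e-09) and not on the same side. Uros ranged from 3.92 to 5.21 CPM in CAST/EiJ (median 4.05) and from 11.1 to 13.2 in PWK/PhJ (median 11.5), against 14.2 to 24.4 in the 48 other libraries (median 18.6). Uros, the uroporphyrinogen III synthase of the haem pathway, gave -1.42 ± 0.0381 (SE; edgeR adjusted p = 5.64e-38). CAST/EiJ minus PWK/PhJ was -1.5 (edgeR adjusted p = 4.77e-27) for this gene, and without CAST/EiJ the value was -0.67. Aldh1a3, a retinaldehyde dehydrogenase, was lower at -1.86 ± 0.128 (SE; edgeR adjusted p = 3.74e-19) with overlap.

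The mitochondrial genome encodes 13 proteins of the respiratory chain and ATP synthase. Of these genes, 12 were lower at an adjusted p under 0.05 with no fold minimum, as were 32.2% of all genes tested. Their median log2 fold change was -0.53, and 2 passed the fold minimum. mt-Nd3 ranged from 55.5 to 102 CPM in CAST/EiJ (median 85.9) and from 128 to 179 in PWK/PhJ (median 150), against 281 to 844 in the 48 other libraries (median 433). mt-Nd3, a complex I subunit, had a log2 difference of -2.03 ± 0.0678 (SE; edgeR adjusted p = 2.87e-32). mt-Nd1 ranged from 1336 to 1900 CPM in CAST/EiJ (median 1379) and from 1346 to 1686 in PWK/PhJ (median 1604), against 2474 to 5885 in the 48 other libraries (median 3761). mt-Nd1, also of complex I, gave -1.36 ± 0.0475 (SE; edgeR adjusted p = 2.77e-32). In both genes all 16 libraries lay below all 48. The size differed along this single genome: mt-Atp8 gave 0.0087 ± 0.05 (SE; edgeR adjusted p = 0.898) and mt-Nd4 gave -0.30 ± 0.0489 (SE; edgeR adjusted p = 5.91e-07).

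The 2 strains did not move alike in every mitochondrial gene. For mt-Nd4l the log2 fold change against the 6 was 0.16 ± 0.0853 (SE) in CAST/EiJ and -0.97 ± 0.0939 (SE) in PWK/PhJ, and mt-Nd6 stood at 587 CPM in CAST/EiJ and 300.1 in PWK/PhJ. These 2 comparisons share the 6 strains. mt-Nd3 went the other way, with a CAST/EiJ minus PWK/PhJ difference of -0.91 (edgeR adjusted p = 1.42e-10). Of the 83 nuclear genes of oxidative phosphorylation, 14 were higher and 23 lower at any fold, both below the shares over all genes (30.7% and 32.2%), with a median of -0.0055.

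**Figure D4:**
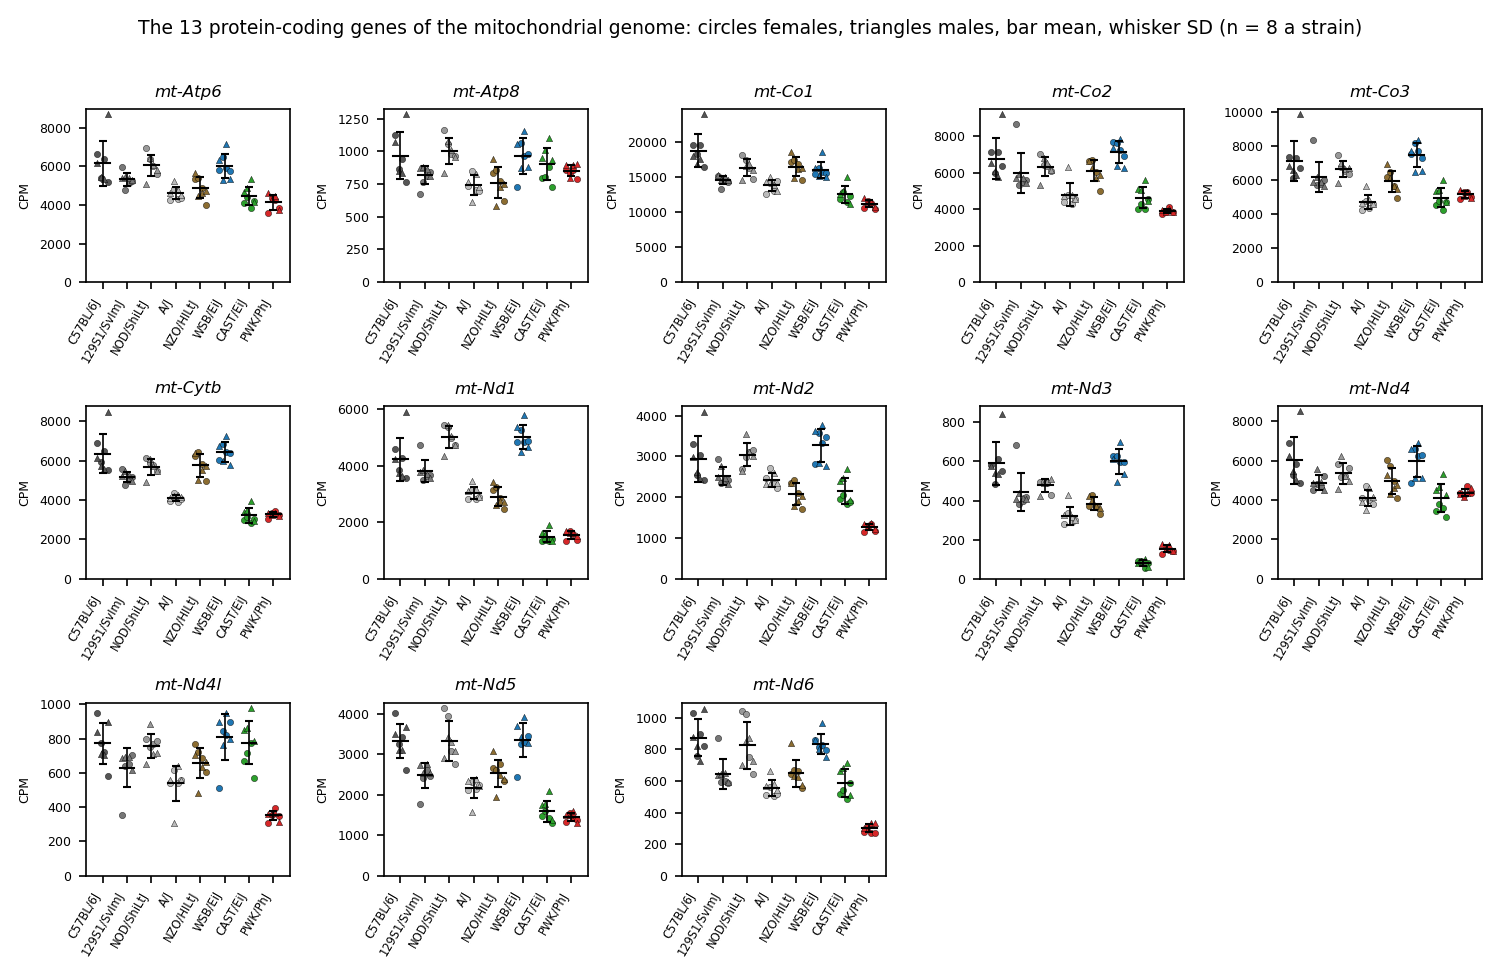
CPM (vertical, from 0) of the 13 protein-coding genes of the mitochondrial genome in the 8 strains (horizontal). Circles are female and triangles male libraries, the bar is the mean and the whisker the SD over 8 libraries. CAST/EiJ and PWK/PhJ lie below all others in mt-Nd1 and mt-Nd3 and level with them in mt-Atp8.

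Genes that respond to interferon formed the list with the most calls among the immune lists. Interferons bind cell surface receptors and, through transcription factors that include STAT2 and IRF9, switch on genes with an interferon-stimulated response element in their promoters. Of 27 such genes tested, 10 were called lower and 1 higher, against 4.98% and 2.74% of all genes. On the same side lay 5 of the lower genes and the higher one. The shares over all genes take no account of abundance. Oas1a, Oas1c, Oas2, Ifi44 and Ifi27l2a had means under 1 CPM in both sets of strains. Of all tested genes under 1 CPM, 10.7% were lower on the same side, against 3.16% over all genes. The list's median log2 fold change was -0.70. At any fold 19 were lower and 3 higher, against 32.2% and 30.7% of all genes. The genes of these 2 factors did not pass the test, with Stat2 at -0.051 ± 0.0367 (SE; edgeR adjusted p = 0.226) and Irf9 at 0.065 ± 0.0447 (SE; edgeR adjusted p = 0.202).

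Promoter sequence is shown for 5 of the genes on the same side, since the core of the response element lies in each. The motif searched was GAAA, any 2 bases and GAAA on both strands, in 250 bases before each start. Of 12889 tested genes with an entry in the RefSeq promoter table (GRCm38.p6), 406 held it at any of their starts (3.15%). It was found in 11 of the 20 interferon-stimulated genes with an entry, in 5 of the 6 of these called lower and in the 1 called higher. The genes on the same side as a whole were near the background, with 13 of 349 lower genes (3.72%) and 6 of 156 higher genes (3.85%). The sequences are of the C57BL/6J reference, so they carry no difference between the strains, and a match is a description of the letters only. Each runs 5′ to 3′ on the gene's strand through the 120 bases before the start, and capitals mark the motif on either strand, with overlapping matches joined. The Oas1a window is chr5:120907526-120907645 (minus strand) and the Oas1c window chr5:120812515-120812634 (minus strand). Those of Rsad2 and Ifit1bl1 are chr12:26456453-26456572 (minus strand) and chr19:34601969-34602088 (minus strand). For Ifit1bl1 and Gbp3, 1 of 2 starts is shown. The window of Gbp3 is chr3:142559924-142560043 (plus strand).
Oas1a: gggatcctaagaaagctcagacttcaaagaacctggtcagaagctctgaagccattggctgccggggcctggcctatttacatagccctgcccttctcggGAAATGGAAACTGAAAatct
Oas1c: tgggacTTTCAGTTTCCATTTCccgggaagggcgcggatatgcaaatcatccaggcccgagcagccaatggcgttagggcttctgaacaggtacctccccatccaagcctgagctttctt
Rsad2: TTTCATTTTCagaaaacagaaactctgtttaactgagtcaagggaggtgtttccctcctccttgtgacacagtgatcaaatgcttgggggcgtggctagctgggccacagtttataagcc
Ifit1bl1: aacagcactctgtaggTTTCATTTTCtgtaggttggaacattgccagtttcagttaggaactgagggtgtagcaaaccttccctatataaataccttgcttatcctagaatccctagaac
Gbp3: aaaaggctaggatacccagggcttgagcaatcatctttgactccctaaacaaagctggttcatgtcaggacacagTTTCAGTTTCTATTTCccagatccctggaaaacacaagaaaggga

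The Oas genes encode synthetases that make 2-5A in response to double-stranded RNA, and 3 of them, adjacent among the tested genes of chromosome 5, were lower in both strains. Oas1a ranged from 0 to 0.171 CPM in CAST/EiJ (median 0.043) and from 0.0458 to 0.273 in PWK/PhJ (median 0.119), against 0.092 to 1.01 in the 48 other libraries (median 0.363). Oas1c ranged from 0.338 to 0.727 CPM in CAST/EiJ (median 0.429) and from 0 to 0.12 in PWK/PhJ (median 0.0196), against 0.279 to 1.4 in the 48 other libraries (median 0.693). Oas2 ranged from 0 to 0.0957 CPM in CAST/EiJ (median 0.0449) and from 0 to 0.183 in PWK/PhJ (median 0.0486), against 0.0447 to 0.642 in the 48 other libraries (median 0.182). The log2 fold changes were -2.01 ± 0.247 (SE; edgeR adjusted p = 3.81e-10) for Oas1a, -2.45 ± 0.203 (SE; edgeR adjusted p = 6.78e-16) for Oas1c and -1.9 ± 0.289 (SE; edgeR adjusted p = 8.42e-08) for Oas2. The groups overlapped in all 3 genes. Oas1c was near 0 in PWK/PhJ only, with fold changes of -0.62 in CAST/EiJ and -4.28 in PWK/PhJ, and without PWK/PhJ its value was -0.61. These genes are of a family with close copies, so reads may have been shared between them, and their levels are uncertain. These 3 genes rest on few reads, with 34, 85 and 19 counts in the 16 libraries together.

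Rsad2 ranged from 0.287 to 1.5 CPM in CAST/EiJ (median 0.556) and from 0.18 to 0.562 in PWK/PhJ (median 0.301), against 0.406 to 2.15 in the 48 other libraries (median 1.05). Rsad2, the gene of the antiviral enzyme viperin, had a log2 difference of -1.29 ± 0.131 (SE; edgeR adjusted p = 1.02e-12), with -0.84 in CAST/EiJ and -1.74 in PWK/PhJ, and -0.83 without PWK/PhJ. Ifit3b ranged from 0.307 to 2.65 CPM in CAST/EiJ (median 0.775) and from 0.674 to 2.22 in PWK/PhJ (median 1.09), against 1.48 to 7.38 in the 48 other libraries (median 3.37). Ifit3b, of the Ifit family that binds viral RNA, gave -1.72 ± 0.129 (SE; edgeR adjusted p = 1.51e-17) and its groups overlapped. Its neighbour Ifit1bl1 was not on the list but had the widest gap among lower protein-coding genes with an official symbol and a mean of at least 3 CPM in the 6. Ifit1bl1 ranged from 0 to 0.171 CPM in CAST/EiJ (median 0.0645) and from 0 to 0.0916 in PWK/PhJ (median 0), against 1.92 to 4.81 in the 48 other libraries (median 3.27). The log2 fold change was -6.7 ± 0.166 (SE; edgeR adjusted p = 3.56e-38), from 14 counts in the 16 libraries and 3471 in the 48, and the groups did not overlap. Ifit1bl1, Ifit3b and Ifit1bl2 followed each other among the tested genes of chromosome 19, and as close copies they are uncertain in level.

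Gbp3 ranged from 4.92 to 7.87 CPM in CAST/EiJ (median 5.61) and from 4.5 to 7.1 in PWK/PhJ (median 6.22), against 1.25 to 5.46 in the 48 other libraries (median 2.74). Gbp3, a guanylate-binding protein, was the 1 gene of the list that was higher, at 1.05 ± 0.0882 (SE; edgeR adjusted p = 1.21e-15), with WSB/EiJ lowest at a mean of 1.72 CPM. Its value was 0.90 without WSB/EiJ and 0.88 in females, short of the fold minimum. In the other 5 lower calls the means of the 2 strains were unequal and did not both lie below all 6. Iigp1 stood at 0.0053 CPM in CAST/EiJ and 0.868 in PWK/PhJ, and Ifi27l2a at 0.566 in CAST/EiJ with no count in PWK/PhJ. Ifi44 stood at 0.022 CPM in CAST/EiJ and 0.394 in PWK/PhJ. Ifi27 stood at 31.6 CPM in CAST/EiJ and 5.3 in PWK/PhJ, and Ifit3 at 2.85 and 1.05. Ifit2, which was not called, had log2 fold changes of -0.18 ± 0.0732 (SE) in CAST/EiJ and 1.61 ± 0.0609 (SE) in PWK/PhJ.

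**Figure D5:**
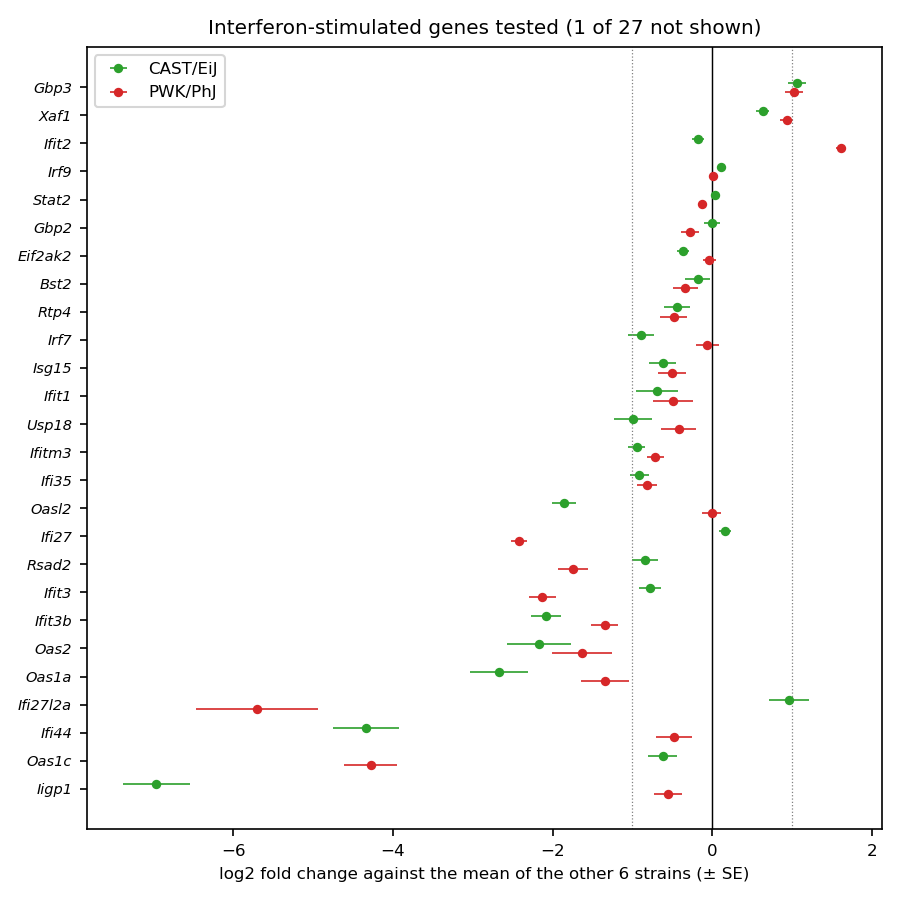
Log2 fold change against the mean of the other 6 strains (horizontal, whiskers SE) for the interferon-stimulated genes tested (vertical, ordered by the mean of both; 1 of the 27 is not shown). Green points are CAST/EiJ and red points PWK/PhJ, and dotted lines mark the fold minimum. Most points lie left of 0, and in genes such as Oas1c, Ifi44 and Ifit2 the 2 strains lie far apart.

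Sensors of infection gave calls in both directions. Of 30 sensors and adaptors tested, 2 were called higher and 4 lower, against 2.74% and 4.98% over all genes, and 2 in each direction lay on the same side. Tlr4 ranged from 2.95 to 4.2 CPM in CAST/EiJ (median 3.54) and from 2.08 to 3.67 in PWK/PhJ (median 2.73), against 0.676 to 2.47 in the 48 other libraries (median 1.4). Tlr4, the receptor for lipopolysaccharide, was higher by 1.21 ± 0.0791 (SE; edgeR adjusted p = 5.11e-20), with overlap in PWK/PhJ. Nlrp1a ranged from 0.851 to 1.83 CPM in CAST/EiJ (median 1.52) and from 0.636 to 1.08 in PWK/PhJ (median 0.747), against 0 to 1.25 in the 48 other libraries (median 0.0503). Nlrp1a, an inflammasome sensor, gave 4.39 ± 0.223 (SE; edgeR adjusted p = 2.01e-22), and it was also expressed in NOD/ShiLtJ, at a mean of 0.643 CPM. Naip2 and Naip6, sensors of bacterial proteins, were lower at -1.22 ± 0.119 (SE; edgeR adjusted p = 2.57e-13) and -2.12 ± 0.237 (SE; edgeR adjusted p = 2.09e-11). Without PWK/PhJ the Naip6 value was -0.81, short of the fold minimum. The Nlrp1 and Naip genes have close copies and are uncertain. Irgm1, an immunity-related GTPase outside the list, was lower in both strains, at -1.75 ± 0.0587 (SE; edgeR adjusted p = 3.26e-33). Its levels were 3.85 ± 0.644 CPM in CAST/EiJ (SD, n = 8) and 1.195 ± 0.4 in PWK/PhJ (SD, n = 8).

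Of 11 MHC class II genes, which present antigen, 3 were called lower and none higher, against 4.98% and 2.74% over all genes, with a median of -0.48. Cd74 ranged from 1.54 to 3.48 CPM in CAST/EiJ (median 2.35) and from 0.518 to 1.98 in PWK/PhJ (median 0.88), against 0.959 to 11.3 in the 48 other libraries (median 3.69). Cd74, the invariant chain, gave -1.25 ± 0.229 (SE; edgeR adjusted p = 5.10e-06), and -0.69 without PWK/PhJ. H2-Aa, a class II alpha chain, gave -1.59 ± 0.271 (SE; edgeR adjusted p = 1.22e-06). Both overlapped with the 48 libraries, and H2-Aa is of a family with close copies. With the strain as the unit neither passed (limma adjusted p = 0.12 for Cd74 and 0.0646 for H2-Aa). The 18 class I and peptide loading genes had 3 lower calls, against 4.98% lower over all genes, and none of the 3 lay on the same side. Of these, H2-Q7 had log2 fold changes of 0.66 in CAST/EiJ and -2.69 in PWK/PhJ. C3ar1, the receptor of complement fragment C3a, was the single gene of 22 in the complement list on the same side (4.55%, against 4.65% of all genes), at -1.14 ± 0.113 (SE; edgeR adjusted p = 3.91e-13). It fell short of the fold minimum in males (-0.93), without NOD/ShiLtJ (-0.97) and without CAST/EiJ (-0.98). None of the 12 microglia markers was called, against 7.72% of all genes. Their sum ran from 346 to 460 CPM in the 16 libraries and from 315 to 497 in the 48.

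Oligodendrocytes form the myelin of axons. All 12 oligodendrocyte markers were lower at an adjusted p under 0.05, as were 32.2% of all genes, with a median log2 fold change of -0.38. Mobp, a myelin protein gene, ranged from 285 to 383 CPM in the 16 libraries and from 400.4 to 872 in the 48, without overlap, at -0.79 ± 0.0541 (SE; edgeR adjusted p = 6.2e-19). Mbp ranged from 1142 to 1709 CPM in the 16 and from 1374 to 2746 in the 48, at -0.44 ± 0.0466 (SE; edgeR adjusted p = 3.27e-12). The summed markers ran from 2882 to 4027 CPM in the 16 libraries and from 3495 to 6776 in the 48.

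Astrocyte markers gave no call among 12, where 7.72% of all genes were called. At any fold 8 were higher and 1 lower, against 30.7% and 32.2% of all genes, with a median of 0.29. S100b, a calcium-binding protein of astrocytes, came close to the fold minimum at 0.95 ± 0.0395 (SE; edgeR adjusted p = 1.004e-28). It stood at 136 ± 7.6 CPM in CAST/EiJ (SD, n = 8) and 245 ± 13.8 in PWK/PhJ (SD, n = 8), against a mean of 94.3 in the 6. Wfs1, a marker of CA1 neurons, likewise gave 0.92 ± 0.0515 (SE; edgeR adjusted p = 1.92e-22). Its level was 476 ± 103 CPM in CAST/EiJ (SD, n = 8) and 305 ± 21.6 in PWK/PhJ (SD, n = 8), against 209 in the 6. Wfs1 had the largest log2 fold change of the 7 CA1 markers tested. None of the 7 was called, against 7.72% of all genes. At any fold 4 of them were higher and none lower, against the same 30.7% and 32.2%, with a median of 0.205. Of 18 immediate early genes, which respond quickly to neuronal activity, none was called, against the same 7.72%. At any fold 10 were higher and 1 was lower, against the same 30.7% and 32.2%, with a median of 0.19.

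Kl, the gene of the hormone receptor klotho, was the only choroid plexus marker of 10 that was called, against 7.72% of all genes. Kl ranged from 5.14 to 78.5 CPM in CAST/EiJ (median 41.2) and from 2.78 to 47.3 in PWK/PhJ (median 4.64), against 16.5 to 178 in the 48 other libraries (median 34.4). It gave -1.21 ± 0.346 (SE; edgeR adjusted p = 0.00213), but -0.44 without PWK/PhJ (edgeR adjusted p = 0.354) and -0.94 in females alone (edgeR adjusted p = 0.11). Summed choroid plexus markers ran from 23.9 to 4890 CPM in CAST/EiJ and from 22.04 to 1874 in PWK/PhJ. Ttr, the most abundant of these markers, gave -0.17 ± 0.762 (SE; edgeR adjusted p = 0.862). With the mean log2 CPM of the choroid plexus markers, Kl included, as a covariate, the Kl value was -1.24 on the log2 scale (edgeR adjusted p = 1.21e-13).

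Among 376 genes with symbols starting with Zfp, 3 were called higher and 8 lower, 3 of them on the same side, against 2.74% and 4.98% called over all genes. Clustered protocadherins, which give neurons distinct surface identities, gave 4 higher and 5 lower calls among 57, with 2 and 4 on the same side. Cytochrome P450 genes gave 3 higher and 4 lower among 31, with 2 and 2 on the same side. The share on the same side was 10.5% of the protocadherins and 12.9% of the P450 genes, where it was 4.65% over all genes. Protocadherins and P450 genes have close copies, and their levels are uncertain. Of 81 cytosolic ribosomal protein genes only Rpl9 was called, against 7.72% of all genes. Rpl9 ranged from 201 to 246 CPM in CAST/EiJ (median 216) and from 15.8 to 26.1 in PWK/PhJ (median 22.4), against 7.31 to 26 in the 48 other libraries (median 15.2). Rpl9 was high in CAST/EiJ alone, with log2 fold changes of 3.81 in CAST/EiJ and 0.49 in PWK/PhJ and a value of 0.49 without CAST/EiJ, and near-identical copies of ribosomal protein genes make its level uncertain. Of all 57 gene lists, 27 held a called gene on the same side, 3 held calls that were not on the same side and 27 held none.

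Some other separated genes belong to families whose copies may share reads. Such families were recognised by symbol, and genes outside them, Nat8f2, Sfi1 and Scd3 included, were not checked for close copies. Serpinb1a, a protease inhibitor, was lower at -4.29 ± 0.142 (SE; edgeR adjusted p = 4.35e-33) and Srp54c, a copy of a signal recognition particle subunit, at -3.11 ± 0.0495 (SE; edgeR adjusted p = 4.07e-49), both without overlap. Amd2, a copy of the adenosylmethionine decarboxylase gene, was higher at 3.83 ± 0.0633 (SE; edgeR adjusted p = 5.53e-47), and WSB/EiJ, at a mean of 39.2 CPM, lay nearer to the 2 strains than to the other 5. The olfactory gene Olfr550 gave 2.22 ± 0.0915 (SE; edgeR adjusted p = 5.56e-29) and the vomeronasal gene Vmn2r115 gave 1.37 ± 0.057 (SE; edgeR adjusted p = 9.59e-29). Of the genes outside these families, Lhfpl1 gave 2.76 ± 0.0883 (SE; edgeR adjusted p = 2.85e-34) and Mypn, a sarcomere and actin protein, gave 2.13 ± 0.0778 (SE; edgeR adjusted p = 1.65e-31). Ntf5, the gene of neurotrophin 4, was lower at -1.23 ± 0.287 (SE; edgeR adjusted p = 0.000205) from 49 counts in the 16 libraries. In females alone the Ntf5 value was -0.50 (edgeR adjusted p = 0.228), and without PWK/PhJ it was -0.92, short of the fold minimum.

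Runs of at least 3 neighbouring tested genes on the same side were found 9 times, 7 of them in 1 direction and 2 with both directions. Besides the Oas and Ifit runs, Klk8 and Klk10, kallikrein proteases, lay in such a run on chromosome 7. Klk8, also called neuropsin, stood at 5.81 ± 0.982 CPM in CAST/EiJ (SD, n = 8) and 6.19 ± 0.463 in PWK/PhJ (SD, n = 8), against a mean of 13.7 in the 6, at -1.19 ± 0.0611 (SE; edgeR adjusted p = 1.14e-24). On chromosome 5, Drd5 stood beside Slc2a9, a urate transporter gene at -1.99 ± 0.103 (SE; edgeR adjusted p = 1.805e-24). The share of tested genes on the same side ran from 3.12% on the X chromosome to 6.49% on chromosome 1 among the autosomes and the X.

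With the strain as the unit, limma on the 8 strain means called 126 genes higher (0.725%) and 306 lower (1.76%). Of these, 126 and 304 were among the 260 and 549 genes on the same side. Genes such as Nudt12 (limma adjusted p = 8.4e-05), Cox5b (limma adjusted p = 7.8e-05) and Scrn3 (limma adjusted p = 6.1e-05) passed. Drd5 did not pass (limma adjusted p = 0.0908), nor did Rsad2 (limma adjusted p = 0.0691). By the same limma adjusted p, Oas1a (0.0654), Oas1c (0.084), Oas2 (0.0844) and Gbp3 (0.0729) did not pass, nor did Nlrp1a (0.0627), Naip2 (0.0697) and Naip6 (0.0657). On this limma adjusted p, Amd2 (0.116), Olfr550 (0.229), Aldh1a3 (0.136), C3ar1 (0.123), Cacna2d4 (0.0765), Gabrr1 (0.0925) and Gabrr2 (0.0989) also did not pass. The same held for Rpl9 (0.0874), Ntf5 (0.095), Uty (0.117), Cyp2u1 (0.0692) and Frrs1 (0.122). Tested against the 6 one at a time, both strains were called in the higher direction for 261 genes (1.5% of those tested) and in the lower for 415 (2.39%). Of the same-side genes, these took in 192 that were higher and 361 that were lower.

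For part of the same-side genes the 2 strains differed in how far they lay from the rest. edgeR called CAST/EiJ against PWK/PhJ for 89 of the 260 higher genes (34.2%) and 173 of the 549 that were lower (31.5%). The share over all genes tested was 11.5%. It is not comparable, since the same-side genes were chosen on the values of these 2 strains and were mostly of low abundance. CAST/EiJ lay further out in 49 of the 89 and 88 of the 173, and PWK/PhJ in the other 40 and 85. Mttp and Oas1c were further out in PWK/PhJ, while Uros, Dsp, Npnt and Srp54c were further out in CAST/EiJ. Some genes were far from the 6 in 1 strain only. Pon2, an esterase of the paraoxonase family, stood at 1.73 ± 0.197 CPM in CAST/EiJ (SD, n = 8) and 29.6 ± 1.93 in PWK/PhJ (SD, n = 8), against a mean of 33.2 in the 6. Th, tyrosine hydroxylase, stood at 0.361 ± 0.141 CPM in CAST/EiJ (SD, n = 8) and 3.62 ± 0.712 in PWK/PhJ (SD, n = 8), against 0.456.

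Most calls were made in each sex. Called in females and in males separately were 237 of the 260 higher genes and 470 of the 549 that were lower. The genes were chosen on the average of both sexes in the same fit, so this agreement is in part set by the rule. In fits to 1 sex alone, 199 and 434 of these genes met the rule in females and 190 and 437 in males. A difference of the contrast between the sexes was found for 3 genes (0.0173% of those tested), and 741 genes had an unadjusted p under 0.05. DESeq2 called 5. Uty, a Y-linked gene, met the rule when both sexes were averaged. In females it ranged from 0.351 to 1.22 CPM in CAST/EiJ, from 0.113 to 0.518 in PWK/PhJ and from 0 to 0.506 in the 24 others. In males Uty ranged from 14.4 to 16.8 CPM in CAST/EiJ, from 12.98 to 14.8 in PWK/PhJ and from 9.34 to 19.8 in the 24 others, which overlap.

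The fold minimum decided some calls. Just inside it, Cyp2u1 gave a log2 fold change of 1.01 and Frrs1 of -1.005, and just outside it Trmt13 gave 0.997 and Il11 -0.995. All 4 had both strain means on 1 side of the 6, and each crossed the fold minimum when certain single strains were left out.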

How the data were processed

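The values are whole-number counts per gene as deposited by the authors in 1 table, with no scaling. RNA was extracted with TRIzol Plus and DNase, and sequenced from TruSeq libraries, per the labels' protocols. Per the submitters' processing notes the genome was GRCm39, and Ensembl release 105 stands in the table's name. The aligner, the counter and the use of strand are not given in the sources used here, so antisense genes cannot be separated. Whether 1 reference or strain genomes served for alignment is not given either. Reads that differ from a reference may be miscounted, and this was not tested. Columns were matched by name, 50 exactly and 14 with 1 digit fewer than in the title. No column was left unused. Samples were numbered within groups in deposition order, which pairs nothing.

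Symbols, types and chromosomes came from GENCODE M21 by gene identifier, with 99.7% matched. Promoters came from RefSeq (GRCm38.p6). Genes were kept by filterByExpr (minimum count 10, total 15). edgeR 4.0.16 in R 4.3.3 fitted 16 means of strain and sex to 64 libraries after TMM scaling, with a robust quasi-likelihood fit and 48 residual degrees of freedom. The contrast was the mean of CAST/EiJ and PWK/PhJ minus the mean of the other 6, with sexes equal. Adjusted p-values are Benjamini-Hochberg values over all genes tested, called under 0.05 with a log2 fold change of at least 1. limma 3.58.1 tested the 8 strain means of log2 CPM (prior count 2) with 6 residual degrees of freedom, and DESeq2 1.42.0 was an alternative. The count tests were tested on simulated data.

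Named genes were protein-coding, called and on the same side: the 12 per direction with the widest gap at 3 CPM or more, 6 more at 20 CPM or more, all such members of the symbol lists, and those nearest the fold minimum, of which Trmt13 and Il11, just outside it, were not called. Irgm1, Klk8, Klk10, Slc2a9, Pon2 and Th were chosen after their values were seen. The genes and lists were chosen with earlier results of these data known. Alternatives were another scaling, DESeq2, other filters and fold minima, single sexes, a choroid plexus covariate, and strains or libraries left out. The values of a few single genes are not reported here.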

Additional observations from a re-analysis of the deposited data

Results flagged for a closer look

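Each named gene was screened in the 8 libraries of CAST/EiJ and the 8 of PWK/PhJ for 1 library far from the rest (130 groups). Chance gives about 1 in 20 such groups, and 14 were found. They are listed in CPM, with the range of the other 7 libraries.

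CAST/EiJ female 4 stood apart in 5 genes. It was the highest for Ube2s (71.3 against 51.97 to 59.96), Cox5b (124 against 104 to 113), Rpl9 (246 against 201 to 220) and Ntf5 (0.681 against 0 to 0.145). It was the lowest for Serpinb1a (0.0851 against 0.299 to 0.657). CAST/EiJ male 1 was the highest for Oas1c (0.727 against 0.338 to 0.478), Rsad2 (1.496 against 0.287 to 0.628) and Uros (5.22 against 3.92 to 4.21). CAST/EiJ male 3 was the lowest for Amd2 (57.5 against 69.4 to 76.5), and CAST/EiJ female 2 was the lowest for Gabrr2, with 0 against 0.0965 to 0.257.

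In PWK/PhJ, female 2 was the highest for Npnt (8.89 against 5.33 to 6.63) and the only library with Ifit1bl1 counts, at 0.0916. PWK/PhJ female 1 was the lowest for Capsl (0.225 against 0.745 to 1.26), and PWK/PhJ male 1 was the lowest for Naip2 (0.0899 against 0.311 to 0.681).

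For 3 genes the contrast of the 2 strains against the 6 differed between the sexes by an interaction test. Inhbb, an inhibin and activin subunit, differed by 0.54 on the log2 scale (females minus males, edgeR adjusted p = 0.0323). In CAST/EiJ males Inhbb ran from 4.40 to 6.47 CPM and in females from 5.88 to 10.4. In PWK/PhJ males it ran from 5.49 to 7.05 CPM and in females from 7.16 to 8.04. The medians of Inhbb in the other 6 strains were 8.365 CPM in males and 8.694 in females. Irgm1 differed by -0.58 (edgeR adjusted p = 0.0461), with log2 fold changes of -2.03 in females and -1.46 in males. Uty differed by 2.101 (edgeR adjusted p = 2.9e-05), with female values near 0 in all strains. In CAST/EiJ, sex cannot be told apart from the block of title numbers, and without CAST/EiJ no gene passed the interaction test.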

How the results depend on the processing

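Counts of calls are given higher first and lower second. Without the filter on low counts, 1033 and 1404 genes were called, 574 and 885 of them on the same side, and 3002 between CAST/EiJ and PWK/PhJ. With a mean of at least 50 counts these became 116 and 235, 58 and 162, and 589, and limma on strain means called 34 and 120. With no fold minimum they were 5329 and 5590, 1866 and 2081, and 9160, with 485 and 676 by limma. With a log2 fold minimum of 2 they were 175 and 305, 109 and 224, and 760, with 43 and 99 by limma. Without CAST/EiJ, 522 and 970 genes lay on the same side, and without PWK/PhJ 608 and 884, where 1 strain had to meet the order. Asking all 16 libraries to lie beyond all 48 left 46 and 122. In females limma called 82 genes higher. Genes whose contrast differed between sexes numbered 5 with DESeq2, 7 without PWK/PhJ, 0 without CAST/EiJ, and 1 without C57BL/6J, 129S1/SvImJ, NOD/ShiLtJ or A/J.

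Leaving out each of the 64 libraries in turn, a step that lowers the smallest group and lets more genes pass the filter, gave 479 to 507 higher calls, 255 to 273 higher and 561 to 588 lower genes on the same side, 120 to 132 and 299 to 317 by limma, 2029 to 2113 between the 2 strains, and 1 to 4 genes by sex. Among named genes, Uty reversed to -0.0295 in males alone (edgeR adjusted p = 0.692). Leaving out 1 library changed calls in Frrs1, Il11, Trmt13 and Uty alone. No paired analysis was possible because the labels give no replicate number that groups share. Depth limits genes under 1 CPM, where a library holds few reads of a gene.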
